A study of Mus with 14 samples.

Results

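The immediate early response genes described here are a list of 32 genes: the AP-1 genes Fos, Fosb, Fosl2, Jun, Junb and Jund, the Egr genes Egr1, Egr2 and Egr3, the nuclear receptor genes Nr4a1, Nr4a2 and Nr4a3, the genes Ier2, Ier3, Ier5, Atf3, Maff, Klf2, Klf6, Myc, Csrnp1, Btg1, Btg2, Zfp36, Zfp36l1, Zfp36l2, Dusp1, Dusp2, Dusp5, Gadd45b, Ppp1r15a and Rhob. No measured value enters the rule that lists them, but the list was drawn up with earlier results of these data known. All 32 were found among the 32285 genes of every count matrix. Immediate early genes are transcribed within minutes of a stimulus, without new protein synthesis, when signalling through MAP kinases, serum response factor or CREB reaches promoters that are already open. Many of their messages are short-lived, and several of the products, such as the Zfp36 and Dusp proteins, shut the same response down again. In blood-forming tissue the genes answer cytokines, adhesion and growth signals.

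Droplet-based 3' single-cell RNA sequencing was done on 14 mice, 1 library a mouse, of Lin-Kit+CD45.2+ bone marrow cells, a sort that enriches stem and progenitor cells of donor origin. By the labels' spelling, 3 mice carried MxCre donor cells as the control and 4 carried Dnmt3a donor cells. Another 3 were Dnmt3a;Tnfr1KO, and the remaining 4 were Dnmt3a;Tnfr2KO. MxCre is a Cre recombinase that interferon induces, Dnmt3a encodes a DNA methyltransferase whose loss expands blood stem cells, and Tnfr1 and Tnfr2 are the receptors for tumour necrosis factor. The study asked how each receptor shapes Dnmt3a-mutant haematopoiesis. In all groups CD45.2+ donor cells had been mixed with CD45.1+ competitor marrow and grafted into aged, lethally irradiated CD45.1+ hosts, which were given a single poly(I:C) injection a month later. Marrow of those hosts was then passed to secondary aged, irradiated hosts, whose marrow was sorted 20 weeks on. The Dnmt3a allele, the age of the donors and the primary host behind each secondary host are not given in the labels. P-values between groups rest on the spread between mice of the same group. Those between lineages rest on how the difference within a mouse varied from mouse to mouse. Some of these 14 mice may share a primary host.

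The libraries held 62416022 to 162869740 UMIs (unique molecular identifiers, each counting 1 captured RNA molecule) in 3042 to 9724 cell barcodes, and 66895 cells were used after filters, 1924 to 7265 a library. Any pair of libraries shared at most 17 cell barcodes. Tnfrsf1b, which encodes Tnfr2, stood at 3.96 to 5.40 CPM (counts per 1000000 UMIs) in the Dnmt3a;Tnfr2KO mice and at 10.2 to 17.3 CPM in all others. Tnfrsf1a, which encodes Tnfr1, stood at 37.5, 33.1 and 37.8 CPM in the 3 mice labelled Dnmt3a;Tnfr1KO and at 38.03, 41.9, 54.1 and 54.5 CPM in the Dnmt3a mice. Counts at the 3' end do not check a deletion elsewhere in the gene, so that group is called Tnfr1KO-labelled. The name is short for its label Dnmt3a;Tnfr1KO, and these mice carry the Dnmt3a label too. The library of the Dnmt3a mouse 4 went against the sort: its B lymphoid markers summed to 2604 CPM, against 33.1 to 190 CPM in the other 13 mice, and its haemoglobin genes to 21810 CPM, against 233 to 2908 CPM. In the Dnmt3a mouse 1 only 26.9% of barcodes passed the filters. Counts of members that passed a test are therefore also given without each of these libraries.

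Each cell was placed in a lineage by the UMIs of marker genes that hold no member of the list, a gate that placed 75.43% of cells. The main lineages were stem (4013 cells, markers such as Hlf, Mecom and Procr), granulocyte (16704 cells, Elane and Mpo), monocyte (7800 cells, Irf8 and Csf1r), megakaryocyte (3281 cells, Pf4 and Itga2b) and erythroid (6057 cells, Klf1 and Car1). The stem gate is the least sharp of these 5, with 13.98% of its cells within 0.1 of a limit of the gate. A multipotent and lymphoid-primed set of 5946 cells (Flt3 and Cd34) was less sharp, with 19.29% of its cells near a limit. A mouse had to give at least 20 cells to enter a lineage, which left the Dnmt3a mouse 4, with 14 megakaryocyte marker cells, out of that lineage.

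The genes are spread over 15 of the mouse chromosomes. On the GRCm38 assembly, by RefSeq annotation, the protein-coding genes Fos (chr12:85473890-85477274), Jun (chr4:95049036-95052222), Atf3 (chr1:191170296-191183333) and Nr4a1 (chr15:101253902-101274795) have no near neighbour on the list. Ier2 (chr8:84661331-84662852) and Junb (chr8:84976909-84978748) lie on the same stretch of chromosome 8.

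The immediate early genes were highest in stem marker cells among the 5 tested lineages, and lowest in granulocyte marker cells. The module level of a mouse is the mean over the 32 genes of log2(CPM + 1), so each gene weighs alike. Over 14 mice it averaged 4.66 ± 0.36 (SD) in stem marker cells, 4.10 ± 0.30 in multipotent and lymphoid-primed cells, 3.92 ± 0.34 in monocyte, 3.73 ± 0.60 in erythroid and 3.42 ± 0.18 in granulocyte marker cells. It averaged 4.20 ± 0.40 over 13 mice in megakaryocyte marker cells. Neighbours in the middle of that order, from megakaryocyte to erythroid, differed by less than 1 SD, whereas every mouse had a lower level in granulocyte than in stem marker cells. Outside the tested lineages, basophil and mast cell marker cells averaged 4.94 ± 0.46 over 13 mice and the B lymphoid marker cells of 8 mice 5.26 ± 0.61. Cells of these lineages differ in depth, with a median of 12987 UMIs a cell in the stem, 29170 in the granulocyte and 3966 in the B lymphoid set, and the part of depth in this order was not tested.

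**Figure D1:**
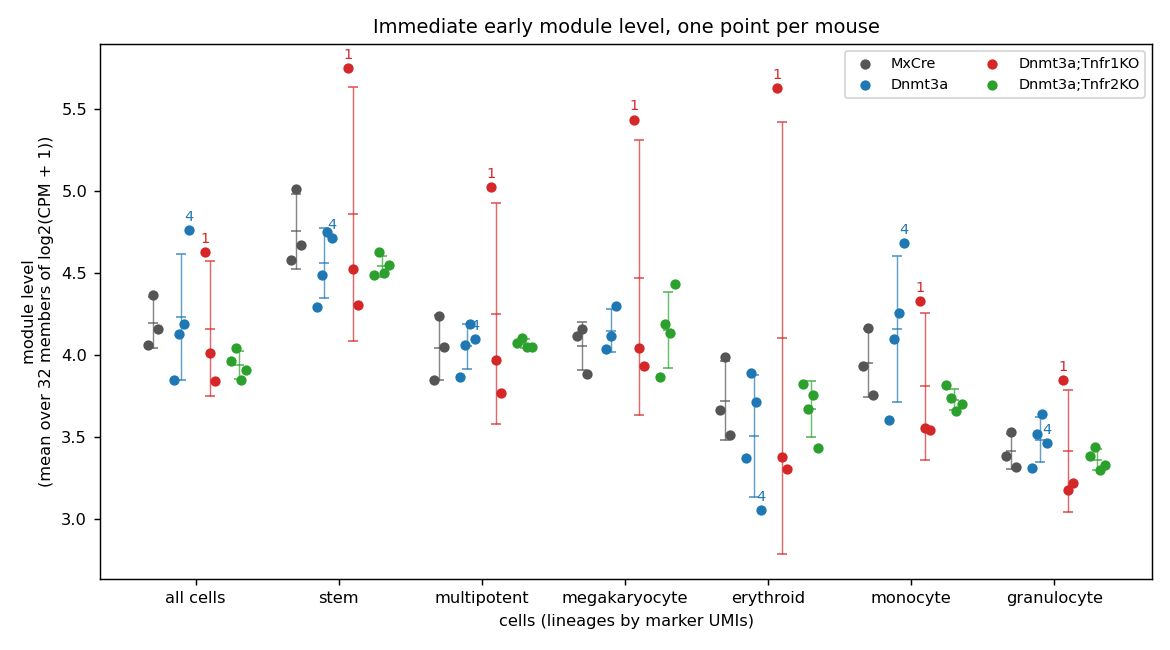
Module level (mean over 32 genes of log2(CPM + 1), vertical axis) in each lineage, 1 point a mouse, coloured by group, with the group mean and SD. Stem marker cells are highest of the 5 tested lineages, and the Tnfr1KO-labelled mouse 1 stands apart in stem (5.74) and erythroid marker cells (5.62).

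The lineages were then compared with stem marker cells gene by gene, with edgeR's quasi-likelihood test and the mouse as a block, and a gene was called at a Benjamini-Hochberg adjusted p below 0.05. In granulocyte marker cells 27 of the 28 members that passed the filter on low counts were called, 25 lower and 2 higher. The lineages are so unlike that 83.9% of all genes tested were called there, 41.9% lower and 42.1% higher, so the direction and not the number of calls sets the members beside the rest. The members' median log2 difference was -1.26, against -0.003 for all genes. Atf3, Egr2, Egr3 and Nr4a3 were too low for any of these tests, and Maff was tested in granulocyte marker cells alone.

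Among the transcription factor genes the largest difference was that of Egr1, a zinc finger factor linked to stem cell quiescence. Its level over 14 mice ran from 10.7 through a median of 28.0 to 108 CPM in stem marker cells and from 0.408 through 0.812 to 4.44 CPM in granulocyte marker cells. The 2 ranges do not overlap, and the log2 difference was -4.52 ± 0.16 (SE; edgeR adjusted p = 2.8e-18). Nr4a1, an orphan nuclear receptor, ran from 2.27 to 56.5 CPM with a median of 4.94 in stem and from 0.173 to 0.818 CPM with a median of 0.406 in granulocyte marker cells, a log2 difference of -3.63 ± 0.25 (edgeR adjusted p = 1.8e-12). Fos, a partner in the AP-1 dimer, fell by less, from a median of 116 to 32.6 CPM (log2 difference -1.34). Myc, which drives growth and ribosome synthesis, did not pass the test in granulocyte marker cells, at a median of 136 CPM in stem and 116 CPM in granulocyte marker cells.

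Among genes that act on RNA and signalling, Zfp36l1, which binds AU-rich elements and speeds the decay of messages, had a median of 30 CPM in stem and 1.86 CPM in granulocyte marker cells (log2 difference -3.58 ± 0.11, edgeR adjusted p = 3.4e-19). Dusp5, a nuclear phosphatase of ERK, was lower by 3.09 ± 0.16 on the log2 scale (edgeR adjusted p = 5.6e-15). The opposite direction held for Gadd45b, a stress sensor, and Rhob, a small GTPase. Gadd45b ran from 7.40 through 11.8 to 27.9 CPM in stem and from 52.4 through 68.0 to 97.9 CPM in granulocyte marker cells, with no overlap and a log2 difference of 2.80 ± 0.09 (edgeR adjusted p = 1.4e-18). Rhob rose from a median of 23.1 to 65.5 CPM, a log2 difference of 1.95.

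Monocyte marker cells shared most of these directions but not all. Of 27 members tested 25 were called, 21 lower and 4 higher, where 82.9% of all genes were called, 42.7% lower and 40.1% higher. Egr1 was lower by 3.38 ± 0.26 on the log2 scale (edgeR adjusted p = 7.4e-11), Zfp36l1 by 2.68 ± 0.18 (7.0e-12), Ier3, a regulator of survival, by 2.14 ± 0.08 (3.9e-16) and Ppp1r15a, which directs dephosphorylation of eIF2 alpha, by 1.75 ± 0.08 (1.2e-14). Klf2, a Krüppel-like factor that restrains inflammatory transcription in monocytes, went the other way. It ran from 4.71 through 9.16 to 35.8 CPM in stem and from 12.6 through 30.4 to 74.95 CPM in monocyte marker cells, and the ranges overlap, although the difference within mice was 1.88 ± 0.16 on the log2 scale (edgeR adjusted p = 2.2e-10). Gadd45b (1.58), Rhob (1.63) and Fosl2 (0.58) were the other members called higher. Fos did not pass the test in monocyte marker cells, at a median of 90.8 CPM and a log2 difference of 0.08.

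In megakaryocyte marker cells 24 of 27 members were called, 20 lower and 4 higher, where 59.3% of all genes were called, 30.2% lower and 29.1% higher. Dusp5 was lower by 2.61 ± 0.15 on the log2 scale (edgeR adjusted p = 9.0e-14), Csrnp1, a nuclear protein of little-known function, by 1.54 ± 0.12, Fos by 1.53 ± 0.14, Ier3 by 1.34 ± 0.12 and Zfp36, the decay factor tristetraprolin, by 1.32 ± 0.11. Jun and Jund, partners of Fos in AP-1, and Egr1 did not pass the test there, with log2 differences of -0.07 and -0.12 for Jun and Jund. The members called higher were Ier5 (0.69), the antiproliferative gene Btg2 (0.67), Zfp36l1 (0.64) and Rhob (0.46).

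In erythroid marker cells 18 of 27 members were called, 17 lower and 1 higher, where 73.1% of all genes were called, 36.7% lower and 36.4% higher. Dusp5 was lower by 3.76 ± 0.20 on the log2 scale (edgeR adjusted p = 9.1e-12), Klf2 by 2.54 ± 0.18, Csrnp1 by 2.54 ± 0.21 and Zfp36 by 2.43 ± 0.19. Nr4a1 had a log2 difference of -2.9997 ± 0.23. Zfp36l1 was higher by 0.63. Egr1, so low in the 2 myeloid lineages, had a median of 28.8 CPM here and did not pass the test (log2 difference 0.37), and Jund (0.09), Btg2 (0.24) and Ppp1r15a (0.35) did not either. The members' median log2 difference from stem was -0.85 in monocyte, -0.47 in megakaryocyte and -0.83 in erythroid marker cells. These 4 comparisons share the stem marker cells.

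**Figure D2:**
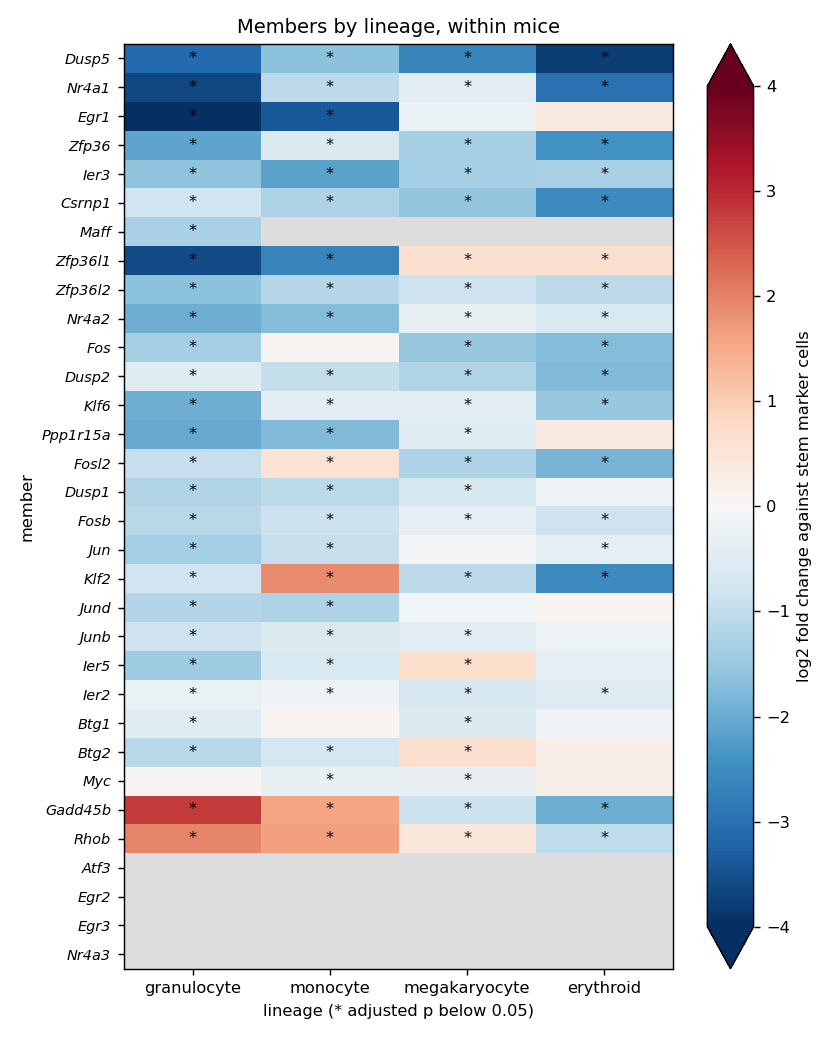
Log2 difference of each tested member from stem marker cells in 4 lineages (colour, blue for lower and red for higher; a star marks an edgeR call and grey a gene too low to test). Egr1 is called lower, by 4.52 and 3.38, in granulocyte and monocyte marker cells and is not called in the other 2 lineages, and Gadd45b and Rhob are higher in both myeloid lineages.

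The 3 further lists that were fixed alongside the members were read in the same tests. Of all genes 83.9% were called in granulocyte, 82.9% in monocyte, 59.3% in megakaryocyte and 73.1% in erythroid marker cells. About as many of all genes were called lower as higher. The totals called in the 3 lists lie nearer those shares in granulocyte and monocyte than in megakaryocyte marker cells. Their directions were uneven. In each lineage more regulators and more other immediate early genes were called lower than higher, and more heat shock genes higher than lower. The lists are small and were not tested as sets. Of 20 regulators upstream of immediate early genes, such as Srf, Elk and MAP kinase genes, 13 were called lower and 6 higher in granulocyte than in stem marker cells, 12 lower and 5 higher in monocyte, 13 lower and 5 higher in megakaryocyte, and 13 lower and 5 higher in erythroid marker cells. Of the other immediate early genes, 17 of 28 tested were lower and 8 higher in granulocyte, 13 of 25 lower and 9 higher in monocyte, 14 of 20 lower and 3 higher in megakaryocyte, and 15 of 20 lower and 2 higher in erythroid marker cells. Of 11 heat shock genes tested, 8 were higher and 2 lower in granulocyte, 7 higher and 3 lower in monocyte, 5 higher and 4 lower in megakaryocyte, and 8 higher and 1 lower in erythroid marker cells.

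Between the groups of mice no member passed the test. Over all cells of a mouse 32 members were tested among 15620 genes, and 0 were called in Dnmt3a against MxCre (2.46% of all genes called), in Tnfr1KO-labelled against Dnmt3a (0.455%), in Dnmt3a;Tnfr2KO against Dnmt3a (0.973%) and in Dnmt3a;Tnfr2KO against Tnfr1KO-labelled mice (0.205%). At an unadjusted edgeR p below 0.05 there were 2, 2, 2 and 5 of the 32 members in these comparisons. All genes at that threshold numbered 3693, 3066, 3630 and 610 of 15620. The members' share was below that of all genes except in the last comparison, where it was above. DESeq2 called 0, 1, 1 and 0. Leaving out any single library, the Dnmt3a mouse 4 and the Tnfr1KO-labelled mouse 1 included, left the edgeR count at 0 in all 4 comparisons. The comparisons share the Dnmt3a mice or the Tnfr1KO-labelled mice and are not independent of each other.

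The lowest adjusted p in any alternative of Dnmt3a against MxCre over all cells, edgeR or DESeq2, was 0.0671, for Nr4a2. In the main setting Egr1 came nearest to a difference between these groups. It stood at 17.6, 24.8 and 21.5 CPM in the MxCre mice and at 7.13, 11.7, 10.5 and 11.9 CPM in the Dnmt3a mice. The 2 groups do not overlap, and the log2 difference was -1.12 ± 0.43 (edgeR adjusted p = 0.138, 0.121 to 0.286 over the alternatives). The makeup of the cells moved with it: the stem markers summed to 372 to 551 CPM in the MxCre and 158 to 281 CPM in the Dnmt3a mice, and the megakaryocyte markers to 320 to 684 CPM and 29.1 to 318 CPM. Their part in the all-cell difference was not tested. Egr1 was picked from 32 members, and how many of all genes part these 2 groups was not counted. Of 15620 genes 3693 had an unadjusted edgeR p below 0.05 in this comparison. In the 4 Dnmt3a;Tnfr2KO mice Egr1 stood at 11.7, 10.9, 7.56 and 10.1 CPM, and in the Tnfr1KO-labelled mice at 35.0, 11.6 and 6.70 CPM, a spread that spans both other groups. Within stem marker cells Egr1 was at 32.6, 76.4 and 47.0 CPM in MxCre and 14.3, 10.7, 36.0 and 17.6 CPM in Dnmt3a mice, where the Dnmt3a mouse 3 overlaps the controls. The log2 difference was -1.46 ± 0.45 (edgeR adjusted p = 0.0765), and without that mouse it was -2.02 (edgeR adjusted p = 0.0430). Leaving out the mouse that overlaps the controls can only widen the gap. Of the 7 libraries left out in turn, it was the only one whose loss gave Egr1 a call. The share of all genes called in that refit is not given.

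Dusp5 was the member nearest the threshold in the Dnmt3a;Tnfr2KO mice, at 2.59, 2.37, 1.99 and 1.84 CPM against 4.04, 3.21, 4.09 and 7.57 CPM in the Dnmt3a mice. Every Dnmt3a;Tnfr2KO mouse was below every Dnmt3a mouse and below every other mouse of the series (MxCre 3.05 to 3.61 CPM, Tnfr1KO-labelled 3.41 to 6.24 CPM). The log2 difference from Dnmt3a was -0.89 ± 0.27 (edgeR adjusted p = 0.102, 0.0306 to 0.214 over the alternatives). The difference from the Tnfr1KO-labelled mice was -1.03 ± 0.29 (edgeR adjusted p = 0.413). Dusp5 was picked from 32 members, and how many of all genes part these groups was not counted. Against Dnmt3a mice, 3630 of 15620 genes had an unadjusted edgeR p below 0.05. Klf2 was at 10.98, 8.29, 11.1 and 6.56 CPM in the Dnmt3a;Tnfr2KO mice and at 6.87, 12.4, 27.1 and 60.0 CPM in the Dnmt3a mice, so the groups overlap (log2 difference -1.32 ± 0.52, edgeR adjusted p = 0.161).

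The median log2 difference of the members was 0.03 in Dnmt3a against MxCre, 0.14 in Tnfr1KO-labelled against Dnmt3a, -0.11 in Dnmt3a;Tnfr2KO against Dnmt3a and -0.34 in Dnmt3a;Tnfr2KO against Tnfr1KO-labelled mice. The median of all genes was 0.03, -0.05, -0.03 and 0.02. Members with a positive difference numbered 18, 21, 11 and 4 of 32. The signs depend on the scaling, which moves members and other genes alike. Without edgeR's TMM factors every gene shifts by -0.20 in Tnfr1KO-labelled against Dnmt3a mice, where the members' median becomes -0.08 with 13 positive members. The same change of scaling shifts Dnmt3a;Tnfr2KO against Dnmt3a by -0.21, to a members' median of -0.33 with 1 positive member. The directions also rest on single libraries. Without the Tnfr1KO-labelled mouse 1 the median of Tnfr1KO-labelled against Dnmt3a mice was -0.23, with 7 positive members. That of Dnmt3a;Tnfr2KO against Tnfr1KO-labelled mice was then 0.11, with 18 positive members. Without the Dnmt3a mouse 4 the median against MxCre was -0.26 (9 positive), that of Tnfr1KO-labelled against Dnmt3a mice 0.37 (29 positive) and that of Dnmt3a;Tnfr2KO against Dnmt3a mice 0.06 (17 positive). Without the Dnmt3a mouse 1 the median of Tnfr1KO-labelled against Dnmt3a mice was -0.003 (16 positive) and that of Dnmt3a;Tnfr2KO against Dnmt3a mice -0.24 (2 positive). Dnmt3a against MxCre also took both signs. Its difference in module level ran from -0.14 to 0.17 when single libraries were left out.

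**Figure D3:**
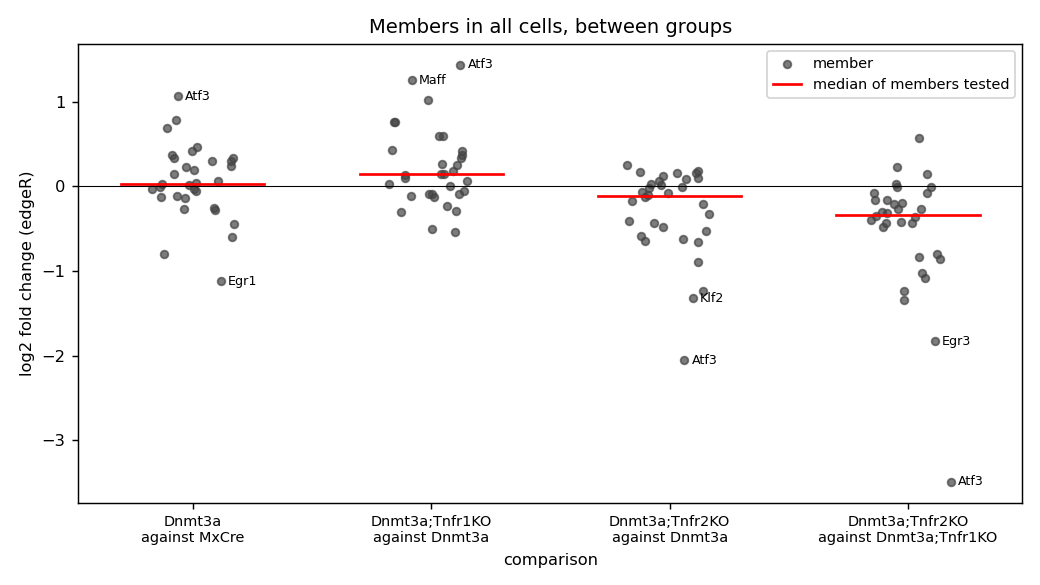
Log2 difference of each member in the comparisons between groups over all cells (vertical axis, 1 point a member), with a red bar at the members' median. No member was called in any comparison, and Atf3 has the widest range, from 1.43 to -3.49.

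Within lineages the count of called members was again 0 in each of 20 tests. In stem marker cells 28 members were tested. The backgrounds of genes called at the adjusted threshold were 3.19%, 0.425%, 0.706% and 0.0995%, in the order of comparisons above. At an unadjusted edgeR p below 0.05 there were 3, 10, 1 and 8 members, beside 2197, 1451, 1625 and 418 of 11055 genes. Granulocyte marker cells had backgrounds of 5.65%, 4.4%, 4.96% and 0.272% with 1, 2, 1 and 2 such members of 28. Monocyte marker cells had 0.961%, 1.42%, 2.16% and 0.166% with 0, 1, 6 and 2 of 30, and megakaryocyte marker cells 1.02%, 0.223%, 0.3% and 0.0388% with 1, 4, 0 and 5 of 26. Erythroid marker cells had 0%, 0.0182%, 0.0818% and 0.0454% with 2, 7, 2 and 5 of 26. At the unadjusted threshold granulocyte marker cells had 3081, 3110, 3330 and 462 of 12873 genes, and monocyte ones 2205, 2494, 2760 and 306 of 12071. Megakaryocyte ones had 1957, 1266, 1449 and 394 of 10316, and erythroid ones 1706, 1268, 1723 and 129 of 11001. In every lineage the members' share was below that of all genes in Dnmt3a against MxCre and in Dnmt3a;Tnfr2KO against Dnmt3a. It was above it in Dnmt3a;Tnfr2KO against Tnfr1KO-labelled mice. DESeq2 called 1 member in stem and 1 in erythroid marker cells of Tnfr1KO-labelled against Dnmt3a mice and 0 in the other 18 of these tests. Over all cells DESeq2 called many more genes than edgeR in that comparison. Its share of all genes in the stem and erythroid tests is not given here, so those calls have no background beside them. In stem, megakaryocyte and erythroid marker cells the members' median log2 difference of Tnfr1KO-labelled from Dnmt3a mice was 0.51, 0.50 and 0.62, and in monocyte marker cells it was -0.19. Without the Tnfr1KO-labelled mouse 1 these medians were -0.05, -0.07, -0.52 and -0.76.

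The smallest adjusted p among the 24 group tests was that of Csrnp1 in stem marker cells of Tnfr1KO-labelled against Dnmt3a mice, a log2 difference of 1.07 ± 0.25 (edgeR adjusted p = 0.0721). It passed the threshold with DESeq2 (adjusted p = 0.0429) and without the Dnmt3a mouse 2 (edgeR adjusted p = 0.0417). Nr4a1 in the same cells was at 56.5, 5.84 and 3.09 CPM in the Tnfr1KO-labelled mice and at 2.42, 5.02, 5.94 and 4.197 CPM in the Dnmt3a mice. The log2 difference of 2.44 ± 0.70 (edgeR adjusted p = 0.136) is carried by 1 of the 3 mice, since the other 2 fall inside the Dnmt3a range. Klf2 in monocyte marker cells passed in both comparisons with Dnmt3a once the Dnmt3a mouse 1 was left out (log2 difference -1.22, edgeR adjusted p = 0.0480, and -1.31, 0.0203), as did Nr4a1 in Dnmt3a;Tnfr2KO against Dnmt3a (-1.59, 0.0425). The calls with 1 library left out, that of Csrnp1 included, are picked from many refits. The share of all genes called in those refits is not given, so these calls have no background beside them.

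Over all cells the 4 Dnmt3a mice had a mean module level of 4.23 ± 0.38 (SD), and the 3 MxCre mice one of 4.20 ± 0.16. The mean of the 3 Tnfr1KO-labelled mice was 4.16 ± 0.41, and the 4 Dnmt3a;Tnfr2KO mice averaged 3.94 ± 0.08. The group means lie within 1 SD of each other except for the tight Dnmt3a;Tnfr2KO group. Its 4 mice (3.96, 4.04, 3.84 and 3.91) still overlap mice of the Dnmt3a and Tnfr1KO-labelled groups. They lie below all MxCre mice (4.06, 4.37 and 4.16). In stem marker cells the means were 4.75 ± 0.23, 4.56 ± 0.21, 4.86 ± 0.78 and 4.54 ± 0.06 in MxCre, Dnmt3a, Tnfr1KO-labelled and Dnmt3a;Tnfr2KO mice, and in erythroid marker cells, in that order, 3.72 ± 0.24, 3.51 ± 0.37, 4.10 ± 1.32 and 3.67 ± 0.17. The spread among the 3 Tnfr1KO-labelled mice was the widest of the 4 groups in both. No p is given for the module level, because it is a score over a chosen list.

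**Figure D4:**
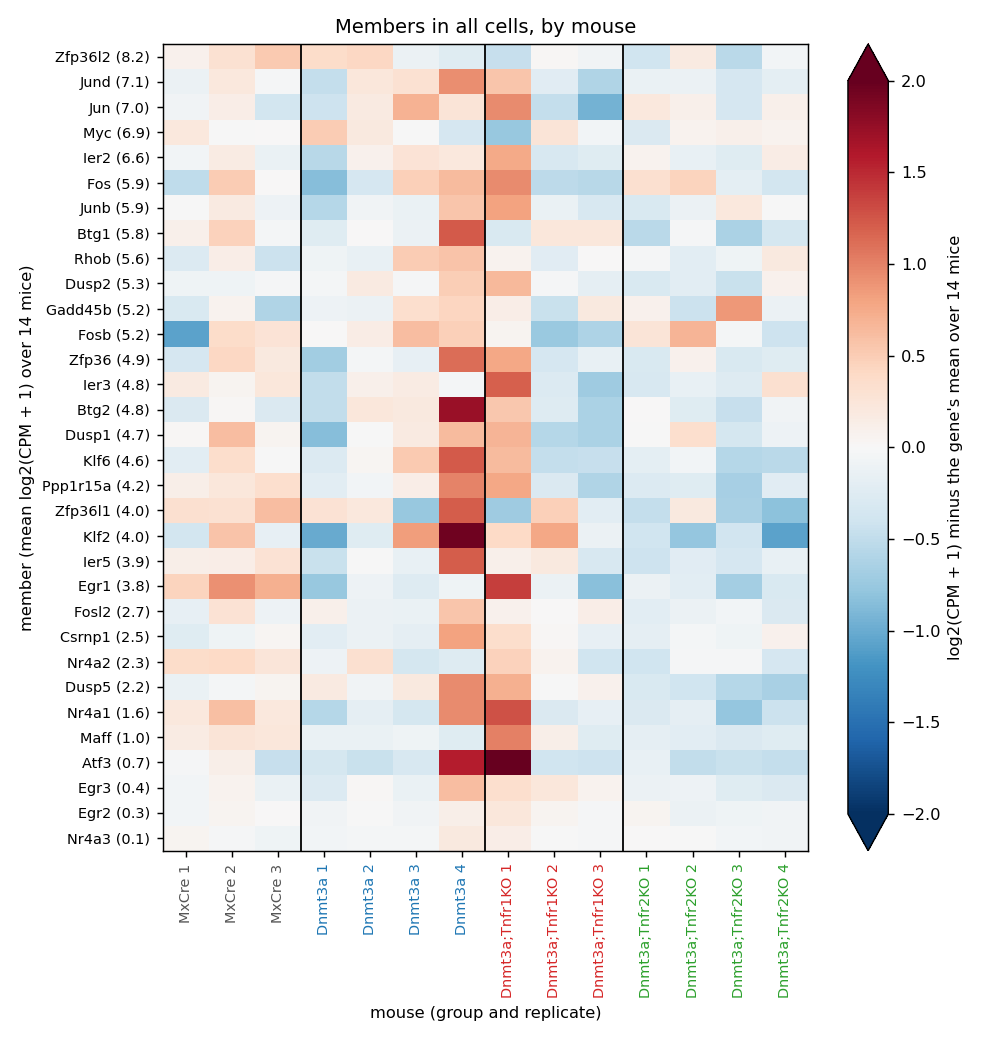
Level of each of the 32 members in every mouse over all cells, relative to the mean over the 14 mice on a log2 scale. The Dnmt3a mouse 4 is the highest of 14 mice for 15 members and the Tnfr1KO-labelled mouse 1 for 13. Among genes averaging at least 10 CPM in the other 13 mice, the Dnmt3a mouse 4 is highest for 10 of 22 members and 13.6% of all genes. The Tnfr1KO-labelled mouse 1 is highest for 8 of 22 members and 2.01% of all genes.

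The 3 Tnfr1KO-labelled mice were read one by one. Mouse 1 had a module level of 4.63 over all cells, mouse 2 one of 4.01 and mouse 3 one of 3.84. The same order held in stem marker cells (5.74, 4.52 and 4.30), in multipotent and lymphoid-primed cells (5.02, 3.97 and 3.77), in megakaryocyte (5.43, 4.04 and 3.93) and in erythroid marker cells (5.62, 3.38 and 3.31). In monocyte (4.33, 3.56 and 3.54) and granulocyte marker cells (3.85, 3.18 and 3.22) mouse 1 was again the highest of the 3. In maturing neutrophil marker cells it was not: the 3 mice were at 3.78, 3.72 and 4.13, and mouse 1 ranked 10th of 12. The 11 mice of the other groups ranged from 4.29 to 5.01 in stem and from 3.05 to 3.99 in erythroid marker cells. Mouse 1 lay above every one of them there and mice 2 and 3 inside the range. The erythroid lower end is the Dnmt3a mouse 4, whose erythroid cells were rich in haemoglobin. The next lowest, the Dnmt3a mouse 1 at 3.37, was above mouse 3 and just below mouse 2. In monocyte and granulocyte marker cells mice 2 and 3 lay below all 11, whose lowest levels were 3.60 and 3.296. In monocyte marker cells mouse 1 was below the Dnmt3a mouse 4, at 4.68.

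Of the 6 AP-1 genes 3 were highest in mouse 1 over all cells. Fos was at 117, 42.0 and 40.8 CPM in Tnfr1KO-labelled mice 1, 2 and 3, Jun at 250, 93.0 and 66.6 CPM, and Junb at 101, 52.2 and 45.7 CPM. Mouse 1 was above all 13 other mice of the series for these 3 genes, and mice 2 and 3 were among the lower mice. Jund was at 206, 119 and 91.5 CPM, with the Dnmt3a mouse 4 higher at 269 CPM. Fosb was at 37.1, 21.0 and 23.1 CPM, so mouse 1 stood above its group mates but inside the range of the series, 16.5 to 58.0 CPM. Fosl2 was at 6.13, 5.75 and 6.32 CPM, with mouse 3 the highest of the 3 and all of them inside the range of the series, 4.48 to 8.86 CPM.

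Egr1 was at 35.0, 11.6 and 6.70 CPM and Nr4a1 at 6.31, 1.47 and 1.70 CPM. Atf3, a stress-induced repressor, was at 6.97, 0.218 and 0.205 CPM, with 3.76 CPM in the Dnmt3a mouse 4 and 0.140 to 0.740 CPM in the remaining 10 mice. For these 3 genes mouse 1 was the highest of 14. Klf6 was at 37.6, 16.9 and 16.995 CPM, below the 57.3 CPM of the Dnmt3a mouse 4. Klf2 did not follow, at 19.7, 26.01 and 13.5 CPM, with mouse 2 the highest of the 3.

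Among genes whose products feed back on the response or limit growth, Ier2, a small nuclear regulator, was at 160, 75.4 and 79.1 CPM, Dusp1, which dephosphorylates p38 and JNK, at 40.8, 16.5 and 15.7 CPM, and Zfp36 at 49.3, 22.2 and 25.5 CPM. Btg2 was at 38.1, 21.4 and 16.3 CPM. Mouse 1 was above its 2 group mates for all 4, and the Dnmt3a mouse 4 was above it for Zfp36 (63.2 CPM) and Btg2 (88.1 CPM). Myc ran the other way, at 69.1, 141 and 113 CPM, and mouse 1 was the lowest of the 14 mice.

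Counted over the members whose mean in the 2 group mates was at least 10 CPM, a filter that mouse 1 itself does not enter, mouse 1 was at least 1.5-fold above that mean for 13 of 21 over all cells, where 0.654% of all such genes were. The count was 19 of 23 in stem (2.18% of genes), 15 of 21 in multipotent and lymphoid-primed (0.799%), 16 of 20 in megakaryocyte (2.23%), 14 of 17 in erythroid (5.71%), 10 of 16 in monocyte (0.666%) and 8 of 14 in granulocyte marker cells (0.446%). The median log2 difference of these members from the mates was largest in erythroid marker cells, at 2.21, and was 1.11 in stem and 0.70 in granulocyte marker cells. A single mouse has no replicate, so these are descriptions of 1 library with no test.

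Erythroid marker cells held the widest gaps, on 199, 536 and 219 cells in mice 1, 2 and 3. Egr1 was at 351, 24.9 and 25.9 CPM, against 2.85 to 59.1 CPM in the other groups. Jun was at 768, 92.4 and 80.3 CPM, Junb at 395, 51.9 and 43.4 CPM, and Fos at 159, 17.8 and 12.4 CPM. Each of these 4 genes in mouse 1 exceeded every other mouse of the series, while mice 2 and 3 lay inside or near the range of the other groups. Ier2 was at 408, 53.0 and 51.4 CPM, Zfp36 at 99.2, 4.96 and 5.44 CPM, and Dusp1 at 118, 16.1 and 14.1 CPM. Btg2 (205, 11.7 and 21.2 CPM) and Ppp1r15a (140, 22.9 and 42.8 CPM) were higher still in the Dnmt3a mouse 4, at 368 and 496 CPM. Myc was again lower in mouse 1, at 81.3, 160 and 158 CPM.

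Erythroid marker cells were unlike each other in every mouse, and most widely in mouse 1. In mouse 1 their summed member UMIs per 10000 UMIs had a median of 34.7, with a 10th percentile of 6.8 and a 90th of 126. In the other 13 mice the medians ran from 9.9 to 15.3, the 10th percentiles from 4.9 to 7.9 and the 90th from 24.2 to 51.6. In stem marker cells of all depths the median was 30.6 in mouse 1 and 18.4 to 26.2 in the others, and the values at matched depth are given below.

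In stem marker cells, on 126, 173 and 79 cells, mouse 1 was again above both group mates for Fos, Nr4a1, Egr1 and Ier3. Fos was at 398, 65.5 and 68.8 CPM, Nr4a1 at the levels given above, Egr1 at 108, 28.9 and 18.6 CPM and Ier3 at 179, 53.2 and 27.8 CPM. Mouse 1 was above all 13 other mice for 25 of the 32 members, and below all of them for Myc, at 81.4 CPM beside 173 and 135 CPM. Among genes whose average over the other 13 mice reached 10 CPM it was the highest mouse in stem marker cells for 15 of 22 members, where 4.12% of all genes were. In erythroid marker cells that count was 13 of 18 (5.16% of genes), in granulocyte 9 of 16 (2.22%), in monocyte 4 of 20 (1.21%) and over all cells 8 of 22 (2.01%). Zfp36l2, a decay factor of the same family as Zfp36, was lower in mouse 1, at 514, 690 and 751 CPM.

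**Figure D5:**
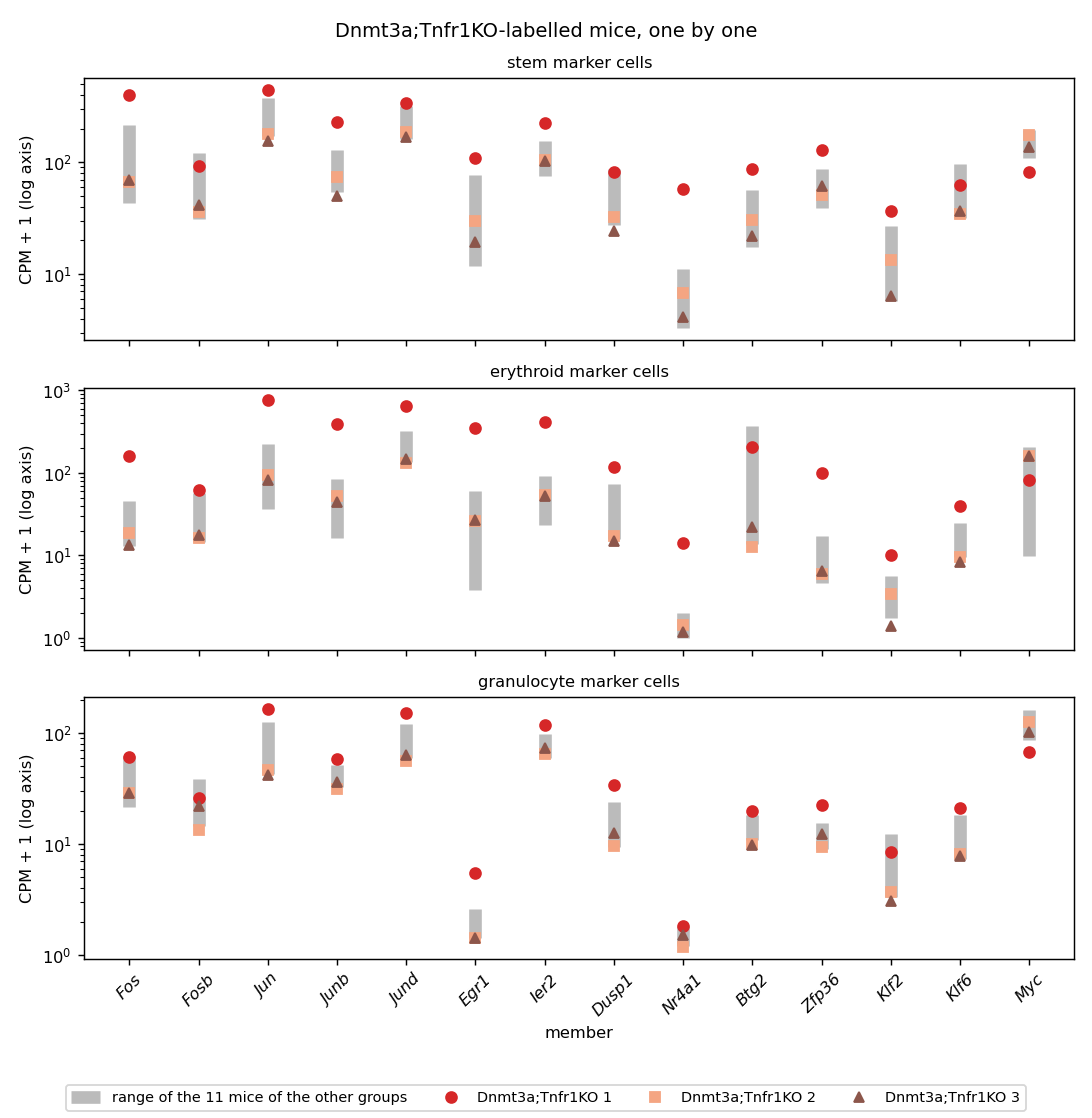
Level of members (CPM, log axis) in the 3 Tnfr1KO-labelled mice in stem, erythroid and granulocyte marker cells, with the range of the 11 mice of the other groups in grey. Mouse 1 lies above the grey range for most members in stem and erythroid marker cells, and mice 2 and 3 lie within or near it. Among the 14 members drawn, mouse 1 is inside or below the range for Fosb, Klf6, Dusp1 and Myc in stem and for Btg2 and Myc in erythroid marker cells.

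Several measures of the library moved with mouse 1. The share of barcodes that passed the filters was 66.7%, 94.4% and 85.0% in mice 1, 2 and 3. The median mitochondrial share of a cell's UMIs was 2.30%, 3.03% and 2.86%, that of mouse 1 the lowest of the 14 mice. Neat1, a nuclear non-coding RNA, stood at 103, 57.3 and 55.8 CPM, where the series ran from 55.8 to 112 CPM. The median depth of erythroid marker cells was 9495, 24742 and 17223 UMIs. The repeat-derived transcripts Gm42418, AY036118 and Lars2, which mark ribosomal sequence in such libraries, summed to 88.3, 11.6 and 42.7 per 10000 UMIs in those cells. In the 11 mice of the other groups that sum ran from 7.10 to 94.6. The mean log2 level of 14 heat shock genes was 6.11, 6.10 and 5.97, nearly the same in the 3 mice, that of the 34 other immediate early genes was 3.42, 3.13 and 3.03, and that of the 20 upstream regulators was 4.37, 4.52 and 4.62, lowest in mouse 1. The part of depth and of cell quality in the result was not tested beyond the following. When only cells of 10000 to 20000 UMIs were used, mouse 1 had an erythroid module level of 5.73 (2.89 to 4.49 in the other 13 mice), a stem level of 5.53 (4.24 to 5.12) and a granulocyte level of 4.17 (2.995 to 3.91 in 11 mice). In monocyte marker cells of that depth its level of 4.80 was inside the range of 3.55 to 5.63. The summed CPM of the members in its stem cells of that depth was 3138, below 3400 in the Dnmt3a mouse 4. In erythroid and granulocyte marker cells that sum, 4488 and 1451, was still the highest. The median of member UMIs per 10000 in those stem cells was 24.85. That was below the Dnmt3a mouse 4 (34.7), MxCre mouse 2 (26.3) and Dnmt3a mouse 1 (24.87). In those stem cells, 71 of them in mouse 1, this mouse was above all others for 15 members of the whole list. No filter on low counts was used for that number. The share of all genes at that depth is not given, so it has no background beside it.

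Weighing stem, multipotent and lymphoid-primed, granulocyte, monocyte and erythroid cells alike in each mouse gave each lineage the same share in every mouse. The level of Tnfr1KO-labelled mouse 1 was then 4.91, the highest of 14, and mice 2 and 3, at 3.72 and 3.63, ranked 12th and 14th. The Dnmt3a mouse 4, the highest over all cells at 4.76, was at 4.00 and ranked 5th, a mean that includes its erythroid level of 3.05, the lowest of 14. With the erythroid cells left out of the mean it was at 4.24 and ranked 2nd, below the Tnfr1KO-labelled mouse 1 at 4.73. With all 5 lineages the group means were 3.98 ± 0.18, 3.95 ± 0.18, 4.09 ± 0.72 and 3.87 ± 0.05 in MxCre, Dnmt3a, Tnfr1KO-labelled and Dnmt3a;Tnfr2KO mice. The Tnfr1KO-labelled mean was 0.07 below Dnmt3a over all cells and 0.13 above it with equal weights (0.02 above with the erythroid cells left out), all smaller than the spread between mice. Without mouse 1 it was 0.31 below Dnmt3a over all cells, 0.15 below in stem and 0.16 below in erythroid marker cells, where with all 3 mice it was 0.30 and 0.60 above.

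The Dnmt3a mouse 4 was at least 1.5-fold above its group mates for 12 of 21 members over all cells, where 4.15% of genes were. It held 2128 B lymphoid and 872 maturing neutrophil marker cells, and over all cells its markers of maturing neutrophils summed to 32150 CPM. Within lineages the count was 9 of 20 in monocyte (3.54% of genes), 6 of 21 in stem (3.36%) and 0 in multipotent and lymphoid-primed (0.412%) and in granulocyte marker cells (0.312%). In erythroid marker cells 12 of 19 members were at least 1.5-fold below the mates (75% of genes) and 5 were above them by as much (8.06%). Its module level was the highest of 14 mice in monocyte marker cells, at 4.68, the highest of 12 in maturing neutrophil marker cells, at 4.98, and the second of 13 in basophil and mast cell marker cells, at 5.50. In its erythroid marker cells haemoglobin took 461500 CPM, against 1103 to 27050 CPM in the other mice, and this lowers the CPM of all other genes in those cells, since CPM share 1 total. In the Dnmt3a mouse 1, by contrast, 14 of the 22 members were at least 1.5-fold below the mates over all cells (3.72% of genes). Over all cells this low level did not hold at the matched depth used above. Its module level over all cells was 3.847 at all depths, ranked 12th of 14. At matched depth it was 4.752, on 221 cells, and ranked 3rd of 14. That was above the Dnmt3a mice 2 (4.685) and 3 (4.612) and below the Dnmt3a mouse 4 (5.035). The window also changed the mix of lineages: it kept 4 of 347 granulocyte and 52 of 148 stem marker cells of the Dnmt3a mouse 1. In stem marker cells of that depth this mouse was at 4.655, ranked 9th of 14 and still below all other Dnmt3a mice. In erythroid marker cells it was at 4.302 and ranked 3rd of 14. The parts of depth and of lineage were not tested.

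Of the 3 other lists, Id3, an inhibitor of basic helix-loop-helix factors, was the 1 gene called over all cells, lower by 4.76 on the log2 scale in Dnmt3a;Tnfr2KO than in Dnmt3a mice (edgeR adjusted p = 0.0434). It stood at 3.69, 0.8286, 2.44 and 25.3 CPM in the Dnmt3a mice and at 0.164 to 0.347 CPM in the Dnmt3a;Tnfr2KO mice. The B lymphoid markers moved with it: they summed to 190, 45.4, 128 and 2604 CPM in the Dnmt3a mice and to 33.1 to 50.1 CPM in the Dnmt3a;Tnfr2KO mice, and their part in the result was not tested. Without the Dnmt3a mouse 4 the log2 difference of Id3 was -2.97 (edgeR adjusted p = 0.0593). Within lineages 6 more genes were called. Map3k8 was lower in stem (-1.23, where 3.19% of all genes were called) and Cebpb in granulocyte marker cells (-0.75, 5.65%) of Dnmt3a against MxCre mice. In granulocyte marker cells of Tnfr1KO-labelled against Dnmt3a mice 1 gene of each list was called, of 20, 27 and 13 tested, a share near the 4.4% of all genes: Creb1 (-0.42), Ier5l (0.82) and the heat shock gene Dnajb1 (0.39). Dusp6, a cytoplasmic phosphatase of ERK, was lower by 1.03 in monocyte marker cells of Dnmt3a;Tnfr2KO against Dnmt3a mice (2.16% of genes). Each of these 7 genes lost its call when at least 1 of the libraries was left out.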

How the data were processed

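The authors deposited, per the file headers and the submitters' processing notes, filtered matrices of UMI counts per gene and cell barcode from Cell Ranger 6.0.0 (bcl2fastq 2.20.0.422; mm10 and GRCm38 named). A barcode was kept with 1000 or more UMIs, 500 or more genes detected and a mitochondrial share below 10%. Doublets were called from simulated pairs of cells (2 a cell, 50 neighbours, 30 principal components) and the top 0.8% per 1000 cells removed. Of 12 marker sets (81 genes), a cell took the best if its score was above 0.5, led by over 0.25 and rested on at least 3 markers with a UMI. The markers were fixed first, the scoring rule after seeing the data. Counts were summed per mouse and lineage and tested with edgeR 4.0.16 (quasi-likelihood, TMM, filterByExpr, R 4.3.3), with all 4 groups in 1 model and Benjamini-Hochberg adjustment over all genes tested. CPM use plain UMI totals. Named genes were all 32 members: in full those called over all cells, a fixed set of 14 mouse by mouse in the Tnfr1KO-labelled group, and per lineage at most 5 called members by size; other genes were named for their values after these were seen. Members and lists were chosen with earlier results of these data known. Same-numbered mice did not deviate together, so no pairing was used. Counts of 1 mouse against others used genes averaging 10 CPM or more in those others. Alternatives were DESeq2 1.42.0, no TMM, other filters, a replicate block and each library left out. Matched depth and equal weights of lineages, with and without erythroid cells, were chosen after seeing the data. The test scripts were tested on simulated data.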

Additional observations from a re-analysis of the deposited data

Results flagged for a closer look

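The level of each of the 32 members over all cells, and the module level over all cells and by lineage, were examined in the groups of 4 mice. In 10 of these 81 groups 1 mouse lay so far from the other 3 that its gap to the nearest, divided by the range of the group, passed Dixon's 95% limit for 4 values. Chance gives about 1 in 20 such groups where the values are normal and the groups independent. These groups are not independent, since they come from the same mice and the module levels average the members. The 10 of 81 can therefore not be read against that rate. In 6 of the 10 the high mouse was the Dnmt3a mouse 4, the library that also held many B lymphoid and maturing neutrophil marker cells. There Btg1 was at 126 CPM, against 44.8 to 53.7 CPM in its group mates (gap over range 0.891), and Ier5 at 34.1 CPM, against 10.2 to 14.1 CPM (0.839). Csrnp1 was at 8.80 CPM, against 3.81 to 4.14 CPM (0.933), and Nr4a1 at 4.84 CPM, against 1.05 to 1.67 CPM (0.836). Atf3 was at 3.76 CPM, against 0.184 to 0.293 CPM (0.970). Nr4a3 was also highest there, at 0.253 CPM against 0.0517 to 0.0660 CPM (0.929), on 26 UMIs against 4 to 9. Among the Dnmt3a;Tnfr2KO mice, Zfp36 was at 30.4 CPM in mouse 2, against 22.8 to 23.8 CPM in the other 3 (0.860). Myc was at 95.8 CPM in mouse 1, against 123 to 125 CPM (0.923), and Atf3 at 0.445 CPM in the same mouse, against 0.140 to 0.183 CPM (0.857). Ppp1r15a was at 10.8 CPM in mouse 3, against 14.5 to 15.0 CPM (0.874). Groups of 3 mice, the Tnfr1KO-labelled group among them, were not examined in this way.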

How the results depend on the processing

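Members called between groups stayed at 0 in most settings. With DESeq2, 1 member was called over all cells in Tnfr1KO-labelled against Dnmt3a mice (Maff, log2 difference 1.27, adjusted p = 0.0372, with 927 of 14547 genes called against 71 with edgeR), 1 in Dnmt3a;Tnfr2KO against Dnmt3a (Dusp5, -0.89, 0.0306, with 1081 genes against 152), 1 in stem (Csrnp1) and 1 in erythroid marker cells (Maff, 3.49, 0.0292) of Tnfr1KO-labelled against Dnmt3a mice. Without TMM, 1 was called in Dnmt3a;Tnfr2KO against Dnmt3a over all cells (Dusp5, -1.11, edgeR adjusted p = 0.0344, with 1600 genes called); the cause was not tested. Leaving out 1 library gave 0 to 1 called members in stem marker cells of Dnmt3a against MxCre and of Tnfr1KO-labelled against Dnmt3a, 0 to 1 and 0 to 2 in monocyte marker cells of Tnfr1KO-labelled and of Dnmt3a;Tnfr2KO against Dnmt3a, 0 to 1 in megakaryocyte marker cells of Dnmt3a against MxCre (Klf6, 1.03, edgeR adjusted p = 0.0433 without the Dnmt3a mouse 2), and 0 elsewhere. The share of all genes called in these refits is not given. Against stem marker cells, leaving out 1 library gave 27, 25 to 26, 22 to 24 and 18 to 23 in granulocyte, monocyte, megakaryocyte and erythroid marker cells, and no called member changed sign. With the replicate number as a block, 0 members were called in all 24 group tests; of 19 same-numbered pairs 6 had a correlation over 0.1 (-0.266 to 0.242), and 2 libraries correlated best with their own number. The 3' UMI depth limits Atf3, Egr2, Egr3 and Nr4a3, near 1 CPM or below in most mice.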
